A study of Mus musculus with 9 samples.

Results

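Metallothioneins and zinc transporters were followed through ventilator-induced lung injury (VILI) in mouse lung. The set held 8 of the 27203 genes in the table, chosen by gene name with earlier results of these data known: the metallothioneins Mt1, Mt2 and Mt3, the zinc-sensing transcription factor Mtf1, the zinc exporter Slc30a1 and the zinc importers Slc39a14, Slc39a8 and Slc39a10. Whole lung RNA from male C57BL/6 mice aged 6 to 8 weeks was sequenced in 9 libraries, 3 per group. Control mice were intubated but not ventilated. VILI mice received 4 hours of high-stretch ventilation (20 ml/kg) under ketamine and xylazine anesthesia with pancuronium as muscle relaxant, on a heating pad at 37 °C, and lungs were taken at 0 hours or 6 hours after ventilation. No group was ventilated without high stretch, so what high-stretch ventilation and the procedure around it contributed cannot be told apart, and the length of anesthesia in control mice is not given in the sources used here. The libraries of a group came from separate mice.

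Metallothioneins are small, cysteine-rich proteins that bind zinc and copper and also react with oxidants. When free zinc rises in the cytosol, the zinc-finger factor MTF-1 binds metal response elements in the promoters of the metallothionein genes and of Slc30a1, which encodes the exporter ZnT1 of the plasma membrane. Metallothionein genes are also known to respond to glucocorticoids and to interleukin 6, and the importer ZIP14, encoded by Slc39a14, is known as an acute-phase zinc importer in liver.

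The starts of Mt1, Mt2 and Slc30a1 are shown because these promoters hold the metal response element core through which MTF-1 acts. RefSeq promoter windows (GRCm38.p6, 250 bases before to 50 bases after the start) were found for 7 of the 8 members, and Slc39a14 had none. The core was searched as TGCACNC and TGCGCNC on both strands, and matches are in capitals. The stretches below lie upstream of the annotated gene start and read 5′ to 3′ on the plus strand.
Mt1, chr8:94178839-94179081, plus strand: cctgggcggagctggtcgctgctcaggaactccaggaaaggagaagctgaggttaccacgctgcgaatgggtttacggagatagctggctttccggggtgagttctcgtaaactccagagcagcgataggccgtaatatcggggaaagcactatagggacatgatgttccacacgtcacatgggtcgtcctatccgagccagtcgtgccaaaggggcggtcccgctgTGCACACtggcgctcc
Mt2, chr8:94172368-94172617, plus strand: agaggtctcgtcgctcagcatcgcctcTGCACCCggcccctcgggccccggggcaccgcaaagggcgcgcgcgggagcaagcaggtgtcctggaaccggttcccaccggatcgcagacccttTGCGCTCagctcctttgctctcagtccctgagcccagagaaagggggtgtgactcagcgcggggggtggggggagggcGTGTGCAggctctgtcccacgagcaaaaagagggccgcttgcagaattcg
Slc30a1, chr1:191906531-191906766, plus strand: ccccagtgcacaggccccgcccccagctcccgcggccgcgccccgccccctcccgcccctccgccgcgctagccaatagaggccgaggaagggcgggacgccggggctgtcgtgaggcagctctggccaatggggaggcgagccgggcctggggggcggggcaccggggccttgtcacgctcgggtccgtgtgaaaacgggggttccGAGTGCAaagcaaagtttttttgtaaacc
A further pair of Mt1 matches lay just past the annotated start of the gene, at chr8:94179091-94179115.
Mt1, plus strand: TGCACTCcgcccgaaaagTGCGCTC
Over the full 300 bases Mt1 held 3 matches, Mt2 held 4, Slc30a1 held 2 and Mt3 held 1. One of the 2 Slc39a8 windows held 1, and no match lay in the Mtf1 window or in the 2 Slc39a10 windows. Of all 32851 windows, 25.7% held at least 1 match, 7.11% at least 2, 1.97% at least 3 and 0.517% at least 4. These matches describe letters in a window and say nothing about whether MTF-1 was bound there. The windows follow annotated starts, and where transcription began in these lungs was not tested, so a match past a start may still lie upstream of the start used.

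Values are FPKM, sequenced fragments scaled to the length of the transcript and to the size of the library, summed over the transcripts of a gene, so levels of different genes are set side by side per length. For its calls of differential expression the study set a threshold on P without naming an adjustment for the number of transcripts, and calls here keep to that. A gene was called when its unadjusted P was below 0.05 in 1 limma fit of log2(FPKM + 0.1) over the 9 libraries, and the Benjamini-Hochberg adjusted p over all 19378 genes tested is printed. All 8 members passed the filter of a mean FPKM of at least 0.1. Fold changes are on the log2(FPKM + 0.1) scale, with a standard error (SE). Both VILI groups were set against the same 3 control libraries, so those comparisons share their controls.

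One library stood apart before any comparison. VILI 6 hours replicate 1 had a mean Spearman correlation over all genes of 0.972 with the control libraries, 0.968 with the VILI 0 hours libraries and 0.958 with the other VILI 6 hours libraries. VILI 6 hours replicates 2 and 3 had means of 0.963 and 0.954 with the controls, the latter the lowest of any library, 0.969 and 0.962 with the VILI 0 hours libraries, and 0.966 and 0.961 with their own group, replicate 1 included. Its summed neutrophil markers nevertheless reached 460 FPKM, against 47.8 to 56.1 in the controls, 551 to 986 at 0 hours and 955 and 1887 in the other 6-hour libraries. Surfactant and other alveolar type 2 markers summed to between 12247 and 15308 FPKM in every library, and 4 hepatocyte markers summed to at most 0.407 FPKM. Results of the 8 genes at 6 hours are therefore given with and without VILI 6 hours replicate 1. Counts of called genes are given both ways too, where a list is counted. This library was singled out after the data were seen. It was the lowest of its group for Mt1, Mt2 and Slc39a14, so leaving it out raises their values at 6 hours. Because the groups share 1 estimate of the spread, leaving it out also changes the P of the comparison at 0 hours.

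Against controls, Mt1 and Mt2 had the largest fold changes of the 8 genes. With all 9 libraries both rose at 6 hours and neither passed the threshold at 0 hours, whereas in the fit without VILI 6 hours replicate 1 both rose at 0 hours and were higher again at 6 hours. Mt1 (ENSMUSG00000031765, chr8:94179082-94180327) stood at 33.99, 35.45 and 33.31 FPKM in the 3 control lungs. At 0 hours it stood at 154.3, 90.84 and 98.58 FPKM, and at 6 hours at 39.29, 463.4 and 929.6 FPKM. All 6 ventilated libraries lay above all 3 controls, but VILI 6 hours replicate 1 was only 1.15 times the control mean, below each VILI 0 hours library, while the other 6-hour libraries were 13.5 and 27.1 times the control mean.

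At 6 hours Mt1 was higher than in controls by 2.90 on the log2 scale (SE 0.92, adjusted p = 0.143), and by 4.26 (SE 0.29, adjusted p = 0.000197) without VILI 6 hours replicate 1. Leaving out this lowest library, a choice made after the data were seen, by itself raises the value and narrows the spread. Mt1 was higher by 1.98 (adjusted p = 0.324) without VILI 6 hours replicate 3, the library with the highest level, and still called. At 0 hours the difference was 1.70 (SE 0.92, adjusted p = 0.401), a 3.25-fold higher level that did not pass. This SE was estimated over all groups, the widely spread 6-hour group included. Without VILI 6 hours replicate 1 the same difference had an SE of 0.26 and an adjusted p of 0.00879, and in a fit of the 6 control and VILI 0 hours libraries alone the adjusted p was 0.00314. It was also called without VILI 6 hours replicate 3 (adjusted p = 0.237). The exact two-sided permutation test of 3 against 3 libraries gave p = 0.1, the smallest it can give, for Mt1 at either time.

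Mt2 (ENSMUSG00000031762, chr8:94172664-94173568) lies 5513 bases before Mt1 on the same strand. Its levels were 13.57, 19.13 and 13.62 FPKM in controls, 129.8, 55.17 and 72.59 FPKM at 0 hours, and 22.95, 455.1 and 1126 FPKM at 6 hours. The groups again did not overlap with controls, and VILI 6 hours replicate 1 again lay just above the highest control and below every VILI 0 hours library. Mt2 was higher at 6 hours by 3.89 on the log2 scale (SE 1.14, adjusted p = 0.124), and by 5.54 (SE 0.42, adjusted p = 0.000259) without that library. Leaving out VILI 6 hours replicate 3 in its place gave 2.74 (adjusted p = 0.274), which was also called. At 0 hours it differed by 2.39 (SE 1.14, adjusted p = 0.340), which passed without VILI 6 hours replicate 1 (adjusted p = 0.00949), with the 6 compared libraries alone (adjusted p = 0.00492) and without VILI 6 hours replicate 3 (adjusted p = 0.186).

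Between the 2 times, Mt1 differed by 1.20 (adjusted p = 0.703) and Mt2 by 1.50 (adjusted p = 0.701) on the log2 scale with all libraries, neither was called, and the groups overlapped. With VILI 6 hours replicate 1 left out, both were higher at 6 hours than at 0 hours, by 2.56 (SE 0.29, adjusted p = 0.0104) for Mt1 and by 3.15 (SE 0.42, adjusted p = 0.0158) for Mt2. Without VILI 6 hours replicate 3 the differences were 0.28 (adjusted p = 0.941) for Mt1 and 0.35 (adjusted p = 0.939) for Mt2, and neither was called. In control lungs Mt1 ranked between 1643 and 1811 by FPKM among 27203 genes and Mt2 between 3667 and 5262. At 6 hours they ranked 1498 and 3040 in replicate 1, 51 and 53 in replicate 2, and 30 and 24 in replicate 3. Together they made up 0.0163%, 0.249% and 0.545% of all FPKM in these libraries, against at most 0.0149% in a control library.

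**Figure D1:**
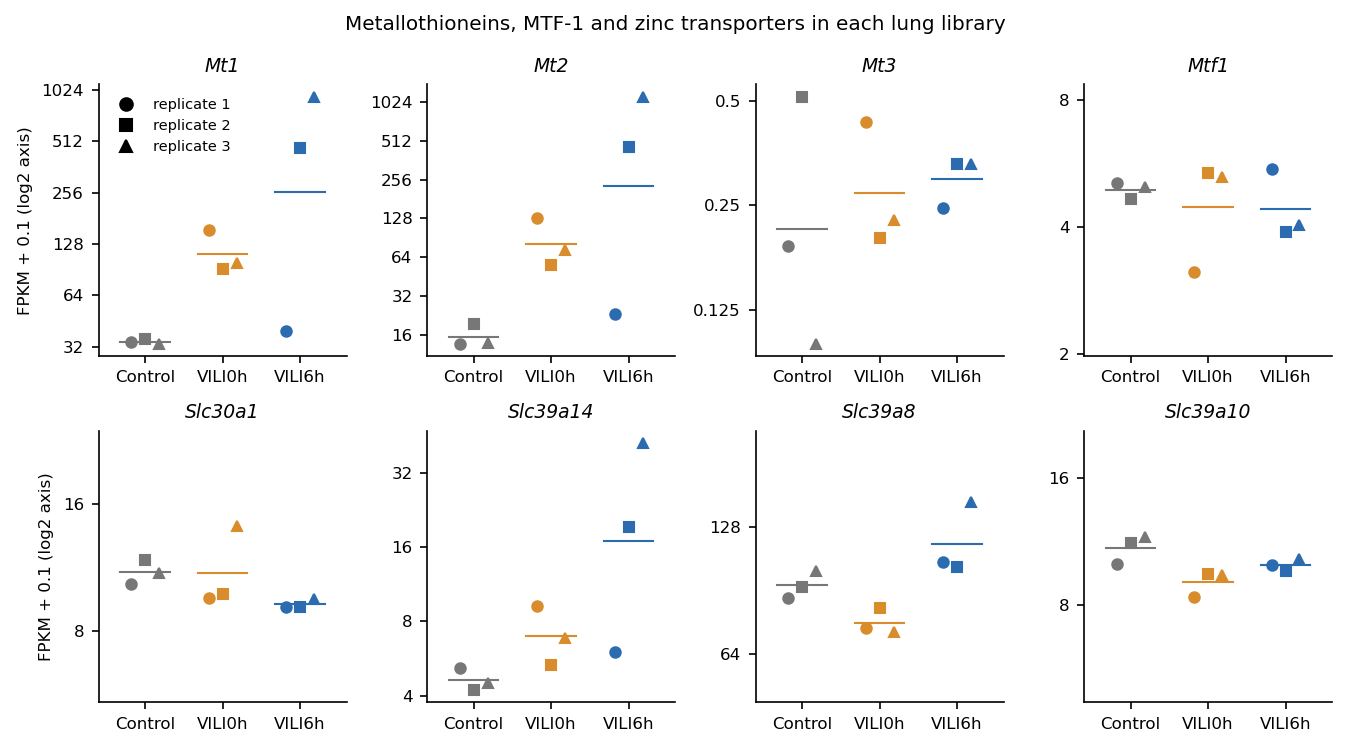
FPKM + 0.1 on a log2 axis for each of the 8 genes, with 1 point per library, a different marker for each replicate number and a line at the mean on the log2 scale of each group of 3. Mt1, Mt2 and Slc39a14 in VILI 6 hours replicate 1 (circles) lie near the controls, at 39.29, 22.95 and 5.91 FPKM, and the other VILI 6 hours libraries lie far above them, while Mtf1, Slc30a1, Slc39a8 and Slc39a10 each span less than 4-fold.

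The balance between both metallothioneins also differed between control and ventilated libraries. The ratio of Mt2 to Mt1 FPKM was 0.399, 0.540 and 0.409 in controls, 0.841, 0.607 and 0.736 at 0 hours, and 0.584, 0.982 and 1.21 at 6 hours. Every ventilated library, VILI 6 hours replicate 1 included, had a higher ratio than every control library. The log2 ratio was higher than in controls by 0.70 at 0 hours and by 0.99 at 6 hours (exact two-sided permutation p = 0.1 for each, the smallest that 3 against 3 allows). It differed by 0.29 between the times (exact permutation p = 0.5). Without VILI 6 hours replicate 1, a choice made after the data were seen, these last differences were 1.29 and 0.60 (exact permutation p = 0.2, the smallest that 2 against 3 allows). Mt1 and Mt2 are close relatives with similar coding sequences, and how reads that match both were assigned is not given in the sources used here.

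**Figure D2:**
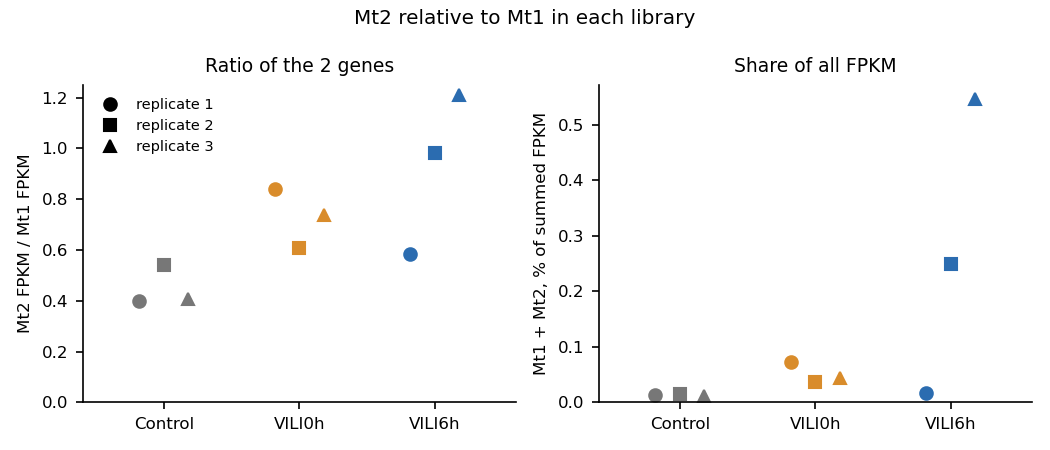
Left, the ratio of Mt2 to Mt1 FPKM in each library, and right, the summed FPKM of both as a percentage of all FPKM of the library, by group with 1 point per library. The ratio runs from 0.399 to 0.540 in controls and from 0.584 to 1.21 in ventilated lungs, and the share reaches 0.249% and 0.545% in 2 of the VILI 6 hours libraries.

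The table lists transcripts without transcript names, so each gene is also a set of rows. Mt1 had 3 rows, and 1 of them held between 84.7% and 97.9% of its FPKM in every library. A minor Mt1 row made up 1.4% to 2.6% of the gene in controls and 1.1%, 9.3% and 12.9% at 0 hours, where VILI 0 hours replicate 1 differed from the other libraries of its group. Of 21 member rows that passed the filter, 4 were called at 0 hours (11% of all 37300 rows tested), 10 at 6 hours (13.2%) and 5 between the times (7.4%). All 3 Mt1 rows and both Mt2 rows rose at 6 hours, with adjusted p between 0.269 and 0.344 over all rows.

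Mt3 (ENSMUSG00000031760, chr8:94152607-94154146), the growth-inhibitory metallothionein known chiefly from brain, had a mean below 0.3 FPKM in each group. Its values were 0.0904, 0.413 and 0 FPKM in controls, 0.333, 0.102 and 0.127 FPKM at 0 hours, and 0.145, 0.228 and 0.229 FPKM at 6 hours. The groups overlapped in every comparison, and none was called. At 6 hours Mt3 differed from controls by 0.48 on the log2 scale, and by 0.62 without VILI 6 hours replicate 1. Mt4, the epithelial metallothionein of the same cluster, was listed at 0 in all 9 libraries.

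Mtf1 and Slc30a1, the sensor and a classical target of the zinc response, were not called in any comparison with all 9 libraries. Mtf1 (ENSMUSG00000028890, chr4:124802104-124849800) stood at 4.99, 4.55 and 4.87 FPKM in controls, 3.03, 5.28 and 5.14 FPKM at 0 hours and 5.39, 3.79 and 3.94 FPKM at 6 hours. Its ventilated libraries lay on both sides of the controls at each time. Its log2 fold change at 6 hours was -0.15, with a 95% confidence interval from -0.66 to 0.36. Without VILI 6 hours replicate 1 it was -0.31, with an interval from -0.82 to 0.21, and was not called.

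Slc30a1 (ENSMUSG00000037434, chr1:191906767-191913247) stood at 10.28, 11.71 and 10.89 FPKM in controls, 9.50, 9.69 and 14.07 FPKM at 0 hours and 9.05, 9.03 and 9.43 FPKM at 6 hours. All 3 libraries at 6 hours lay below all controls, but the difference of -0.25 on the log2 scale (SE 0.15) was not called, with all libraries (adjusted p = 0.366) or without VILI 6 hours replicate 1 (adjusted p = 0.322). It was called without VILI 0 hours replicate 3, the library at 14.07 FPKM (adjusted p = 0.258). Its 95% confidence interval, from -0.60 to 0.09, lay wholly below those of Mt1 (0.84 to 4.96) and Mt2 (1.34 to 6.44) at 6 hours. The difference between these genes was not itself tested.

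Slc39a14 rose at 6 hours, with the largest fold change of the 3 importers. It encodes ZIP14, which carries zinc, iron and manganese into the cell. Slc39a14 (ENSMUSG00000022094, chr14:70303469-70351425, minus strand) stood at 5.08, 4.12 and 4.43 FPKM in controls, 9.17, 5.22 and 6.74 FPKM at 0 hours and 5.91, 19.27 and 42.02 FPKM at 6 hours. All ventilated libraries lay above all controls, and VILI 6 hours replicate 1 again stood near them, at 1.30 times the control mean against 4.24 and 9.25 times in the other 6-hour libraries.

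At 6 hours Slc39a14 was higher by 1.88 on the log2 scale (SE 0.56, adjusted p = 0.131), and by 2.63 (SE 0.32, adjusted p = 0.00147) without VILI 6 hours replicate 1. The value was 1.22 (adjusted p = 0.260), still called, without VILI 6 hours replicate 3. At 0 hours it differed by 0.59 (SE 0.56, adjusted p = 0.645). This was not called without VILI 6 hours replicate 1 either (adjusted p = 0.259), but it was in the 6 compared libraries alone (adjusted p = 0.111). From 0 to 6 hours Slc39a14 was called higher by 1.29 (SE 0.56, adjusted p = 0.489), but these groups overlapped and the exact two-sided permutation test gave p = 0.3. That call was lost in 14 of 18 alternative settings, and the difference was 0.63 (adjusted p = 0.673) without VILI 6 hours replicate 3 and 2.04 (SE 0.32, adjusted p = 0.0238) without replicate 1. Of its 8 rows, 5 passed the filter and 3 rose at 6 hours. The main row held 75.2% to 80.9% of the gene in controls, 65.2% to 70.8% at 0 hours, 80.2% in VILI 6 hours replicate 1 and 65.6% and 62.2% in replicates 2 and 3. Another row reached 19.9% and 24.8% in these 2 libraries and ran from 0.116% to 13.8% in the other libraries.

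Slc39a8 and Slc39a10 differed less between groups, by at most 0.62 on the log2 scale with all libraries. Slc39a8 (ENSMUSG00000053897, chr3:135825279-135888572) encodes ZIP8, an importer of zinc, manganese and cadmium. By group means it was the most abundant member per length after Mt1 and Mt2 at 6 hours, and the most abundant of all in controls. In VILI 6 hours replicate 1 it stood above Mt1 and Mt2. Its levels were 86.63, 92.25 and 100.4 FPKM in controls, 73.60, 82.06 and 72.12 FPKM at 0 hours and 105.6, 102.8 and 147.0 FPKM at 6 hours. All VILI 0 hours libraries lay below and all VILI 6 hours libraries above the controls.

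The lower level of Slc39a8 at 0 hours, by -0.29 on the log2 scale (SE 0.14, adjusted p = 0.342), was not called with all libraries. It was called in the 6 compared libraries alone (adjusted p = 0.0737), without VILI 6 hours replicate 3 (adjusted p = 0.124) and by the row with the highest mean (-0.55, adjusted p = 0.321). The higher level at 6 hours, by 0.33 (SE 0.14), was called with all libraries (adjusted p = 0.229) and without VILI 6 hours replicate 1 (adjusted p = 0.0776). This call was lost in 9 of 18 alternative settings and turned to -0.043 in another, when the row with the highest mean stood for the gene. It was lost without control replicate 1 (0.28), without control replicate 2 (0.33), without any single VILI 0 hours library (0.33 each) and without VILI 6 hours replicate 3 (0.16, adjusted p = 0.490), and with no filter, with no trend and with only the 6 compared libraries (0.33 each). The rise of Slc39a8 from 0 to 6 hours held in 17 of 18 alternative settings. It rose by 0.62 (SE 0.14, adjusted p = 0.231), and by 0.70 (adjusted p = 0.0531) without replicate 1. Gm43428, a locus of unsettled type on the same strand within Slc39a8, stood at 2.33 to 2.55 FPKM in controls, 1.09 to 1.55 FPKM at 0 hours and 2.27 to 6.04 FPKM at 6 hours, and rose by 1.48 from 0 to 6 hours (adjusted p = 0.194).

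Slc39a10 (ENSMUSG00000025986, chr1:46807544-46892852, minus strand), which encodes the importer ZIP10, stood at 9.93, 11.11 and 11.50 FPKM in controls, 8.28, 9.36 and 9.32 FPKM at 0 hours and 9.84, 9.53 and 10.19 FPKM at 6 hours. The VILI 0 hours libraries lay below both other groups. At 6 hours Slc39a10 differed from controls by -0.14, and by -0.13 without VILI 6 hours replicate 1, and was called in neither fit. Slc39a10 fell by 0.27 on the log2 scale at 0 hours (SE 0.11, adjusted p = 0.261), the only member called there. Its rows were split, since the main row fell by 0.43 (adjusted p = 0.275 over all rows) while a minor row was called higher by 2.89 (adjusted p = 0.290), from a mean of 0.0179 FPKM in controls to 0.805 FPKM. The call of the gene was lost without control replicate 2 (-0.25, adjusted p = 0.567), without control replicate 3 (-0.23, adjusted p = 0.520), without VILI 0 hours replicate 1 (-0.21, adjusted p = 0.494) and after centring each library on its median (-0.15, adjusted p = 0.562).

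**Figure D3:**
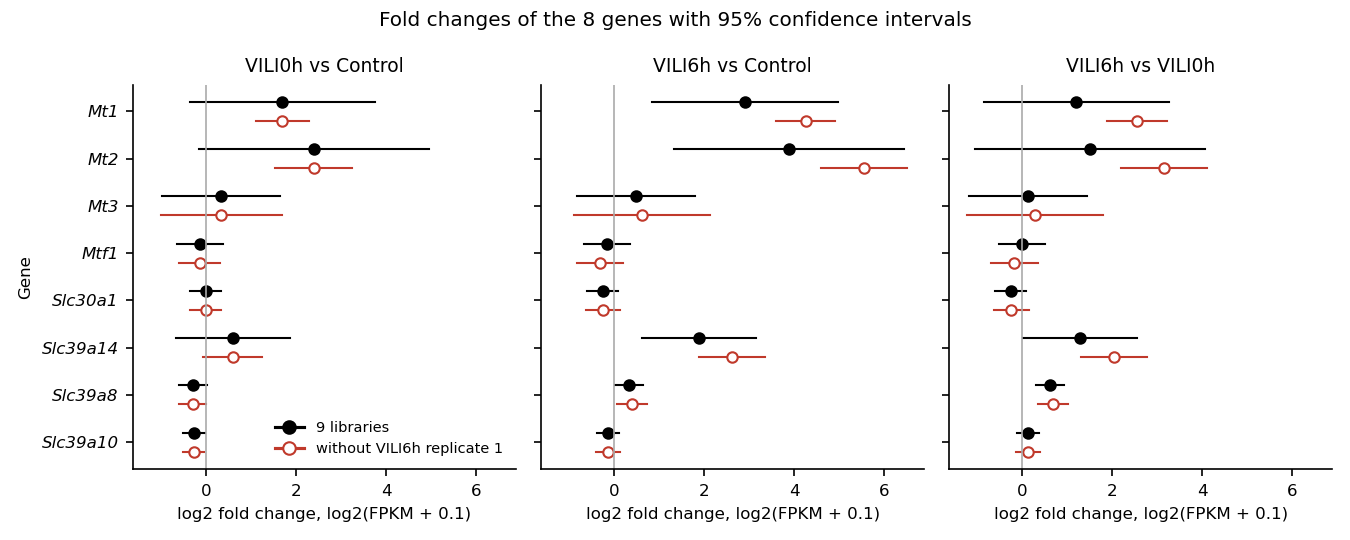
Log2 fold changes of the 8 genes on the log2(FPKM + 0.1) scale in the 3 comparisons, with bars for the 95% confidence interval, for all 9 libraries (filled black) and without VILI 6 hours replicate 1 (open red). For Mt1 at 6 hours the value goes from 2.90 to 4.26 and the interval narrows when that library is left out, and the intervals of Mt3, Mtf1 and Slc30a1 cross 0 in every panel.

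Across the set, 1 of 8 members was called at 0 hours (it was lower), against 16.2% of all genes tested in either direction and 9.35% lower. At 6 hours 4 of 8 were called, all higher, against 20.4% of all genes in either direction and 8.17% higher. Between the times 2 of 8 were called, both higher, against 10% and 5.06%. None of the 8 passed an adjusted p of 0.05 in limma with all libraries, where 0.284%, 0.702% and 0% of all genes did. Without VILI 6 hours replicate 1 the members called became 3, 4 and 4, against 23.2%, 38.9% and 22.4% of all genes, and those with an adjusted p under 0.05 became 2, 3 and 3, against 6.93%, 23.3% and 1.87%. The groups did not overlap for 5, 5 and 3 members, against 33.5%, 24.6% and 12.5% of all genes. The median log2 fold change of the 8 was 0.17 at 0 hours and 0.40 at 6 hours, and that of all genes was -0.07 and -0.09.

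Over the 9 libraries, log2 levels of Mt1 followed those of Mt2 (r = 0.997) and of Slc39a14 (r = 0.96), whereas Slc30a1 and Mtf1 ran at r = -0.35 and -0.60 with Mt1. Among 14107 other genes with a mean of at least 1 FPKM, the genes most like Mt1 after Mt2 were Carhsp1, Ngp, Entpd1 and Lbp, with r from 0.986 to 0.989. Those most like Mt2 after Mt1 were Carhsp1, Entpd1, Tmem37 and Slc7a6 (r from 0.987 to 0.992), and those most like Slc39a14 were Elmsan1, Clic4, Pde12, Alpl and Adamts4 (r from 0.981 to 0.988). Lbp, which encodes the lipopolysaccharide-binding protein of the acute phase, stood at 15.2 to 16.8 FPKM in controls, 17.1 in VILI 6 hours replicate 1 and 30.7 and 43.8 in the other 6-hour libraries. Ngp, a neutrophil granule gene, stood at 0.677 FPKM in VILI 6 hours replicate 1, within its control range of 0.494 to 1.14, and at 24.7 and 118 FPKM in the others. These correlations describe libraries that share their groups and the library that stood apart, and carry no test.

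Other zinc transporters were counted from a list of 21 genes, Mt4 included. Of these, 16 passed the filter, and 1 was called at each time, beside 16.2% of all genes at 0 hours and 20.4% at 6 hours. Slc39a1, which encodes the importer ZIP1, rose at 6 hours by 0.34 on the log2 scale (adjusted p = 0.237), from 39.9 to 43.4 FPKM in controls to 43.1, 51.6 and 64.6 FPKM. Slc30a4, an exporter into vesicles, was listed at 0 in VILI 0 hours replicates 2 and 3 but at 5.89 FPKM in replicate 1 and at 4.68 to 6.34 FPKM in the control and 6-hour libraries, so its call at 0 hours (adjusted p = 0.214) rests on those zeros and is given by its values only. With VILI 6 hours replicate 1 left out, 1 rose and 4 fell at 6 hours, beside 38.9% of all genes called. The median of the list was -0.05 at 0 hours and -0.10 at 6 hours.

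Of 18 genes that handle other metals, or zinc outside cells, 7 rose and 2 fell at 0 hours, and 8 rose and 2 fell at 6 hours. Leaving out VILI 6 hours replicate 1, 7 rose and 3 fell at 0 hours and 10 rose and 4 fell at 6 hours. Of all genes, 16.2% and 20.4% were called with all libraries and 23.2% and 38.9% without that library. S100a8 and S100a9, whose proteins form calprotectin, which binds zinc and calcium, went from 9.94 to 15.0 and from 23.4 to 29.3 FPKM in controls to 161 to 280 and 269 to 490 FPKM at 0 hours. At 6 hours they reached 136, 199 and 545 FPKM and 238, 554 and 1100 FPKM. They rose by 4.08 and 3.84 at 0 hours (adjusted p = 0.0204 and 0.0247) and by 4.30 and 4.31 at 6 hours (adjusted p = 0.0136 for each), and both are also neutrophil markers. In VILI 6 hours replicate 1 both stood far above the controls, unlike Mt1 and Mt2.

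Of the other metal genes, Slc11a1, a metal carrier of phagosomes, rose at 0 hours (0.54) and 6 hours (1.34, adjusted p = 0.0311), as did the iron-binding Ltf (1.29 and 2.29) and ferritin heavy chain Fth1 (0.36 and 0.56). The iron exporter Slc40a1 (0.62) and the copper importer Slc31a1 (0.45) rose at 0 hours, and at 6 hours neither was called with all libraries, whereas Slc31a1 was called without VILI 6 hours replicate 1 (0.30, adjusted p = 0.0622). The 0-hour call of Ltf was lost without that library (adjusted p = 0.222). Lcn2 (2.18), Hp (0.54) and Hmox1 (0.72), which bind siderophores or hemoglobin or break down heme, rose at 6 hours. Tfrc, the transferrin receptor, fell by 0.85 and by 0.95, Slc11a2 fell by 0.26 at 0 hours and Selenoh fell by 0.44 at 6 hours. In the comparison of the 2 times, Lcn2 (1.37, adjusted p = 0.458) and Slc11a1 (0.80, adjusted p = 0.303) were called higher and Slc40a1 (-0.56, adjusted p = 0.407) was lower at 6 hours.

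Known inducers of metallothionein genes were set beside the members. Of 10 genes for the glucocorticoid receptor and its targets, 8 rose and 1 fell at 0 hours and 4 rose and 1 fell at 6 hours, beside 16.2% and 20.4% of all genes called. Fkbp5, a chaperone induced by glucocorticoids, stood at 3.53 to 4.62 FPKM in controls, 86.3, 46.5 and 96.5 FPKM at 0 hours and 6.73, 81.6 and 107 FPKM at 6 hours. Zbtb16, also a target, stood at 14.2 to 24.2 FPKM in controls, 118 to 154 FPKM at 0 hours and 8.48, 141 and 119 FPKM at 6 hours. For 9 of these 10 genes VILI 6 hours replicate 1 lay below both other 6-hour libraries, and for 9 it lay below every VILI 0 hours library. It lay below the control range for 5 of the 10, Zbtb16 among them, within it for 1 and above it for 4.

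Fkbp5 (4.10), Zbtb16 (2.90), Ddit4 (2.70), Errfi1 (2.39), Per1 (1.76), Tsc22d3 (1.61), Dusp1 (1.60) and Klf9 (1.39) rose at 0 hours, with adjusted p between 0.0757 and 0.257. At 6 hours Fkbp5 (3.20), Ddit4 (2.20), Errfi1 (1.77) and Sgk1 (1.25) rose. Nr3c1, the receptor itself, fell by 0.55 and by 0.61. Without VILI 6 hours replicate 1, a choice made after the data were seen, 9 rose and 1 fell at each time, beside 23.2% and 38.9% of all genes, and between the times Sgk1 rose. With all libraries, Tsc22d3 was called lower at 6 hours than at 0 hours (-1.06, adjusted p = 0.476) and no gene of the list was called higher. That call of Tsc22d3 was lost without VILI 6 hours replicate 1 (-0.42, adjusted p = 0.241). Whether glucocorticoid signaling had a part in the metallothionein levels was not tested.

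Of 8 genes for interleukin 6 and STAT3, 2 rose at 0 hours, and 5 rose and 1 fell at 6 hours, beside 16.2% and 20.4% of all genes called. These counts became 3 at 0 hours, and 6 higher and 1 lower at 6 hours, without VILI 6 hours replicate 1, where 23.2% and 38.9% of all genes were called. Il6 stood at 0.14 to 0.28 FPKM in controls, 0.10 to 0.39 FPKM at 0 hours and 0.31, 1.58 and 19.3 FPKM at 6 hours, and rose by 2.93 at 6 hours (adjusted p = 0.194), or by 4.20 (adjusted p = 0.0120) without VILI 6 hours replicate 1. Socs3, the feedback inhibitor of this pathway, stood at 9.82 to 12.2 FPKM in controls, 22.7, 44.7 and 30.7 FPKM at 0 hours and 25.5, 101 and 159 FPKM at 6 hours. It rose by 1.50 at 0 hours and by 2.74 at 6 hours. The receptor chain Il6ra rose at both times (1.09 and 0.97), Stat3 (0.74) and the oncostatin M receptor Osmr (1.03) rose at 6 hours, and Lifr fell by 0.48. In VILI 6 hours replicate 1, 6 of the 8 lay below both other 6-hour libraries. Their part in the metallothionein levels was not tested.

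Of 8 genes for the oxidant-responsive factor NRF2 (Nfe2l2) and its targets, none was called at 0 hours with or without VILI 6 hours replicate 1. Of all genes, 16.2% and 23.2% were called there. The smallest limma adjusted p with all libraries was 0.478, for Hmox1. At 6 hours Slc7a11, a cystine importer (2.76), Txnrd1, a thioredoxin reductase (0.77), and Hmox1 (0.72) rose, beside 20.4% of all genes called. Without VILI 6 hours replicate 1 Gclm, a subunit of the enzyme for glutathione synthesis (0.42, adjusted p = 0.0353), was called too, beside 38.9% of all genes. The median log2 fold change at 0 hours was 1.68 for the glucocorticoid list, 0.15 for the interleukin 6 list and 0.039 for the NRF2 list, beside -0.07 for all genes. At 6 hours these medians were 1.17, 0.85 and 0.73, beside -0.09 for all genes, and they were 1.84, 1.09 and 0.89 without VILI 6 hours replicate 1. These are bulk lung samples, in which fewer cells of a type and less RNA per cell cannot be told apart.

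**Figure D4:**
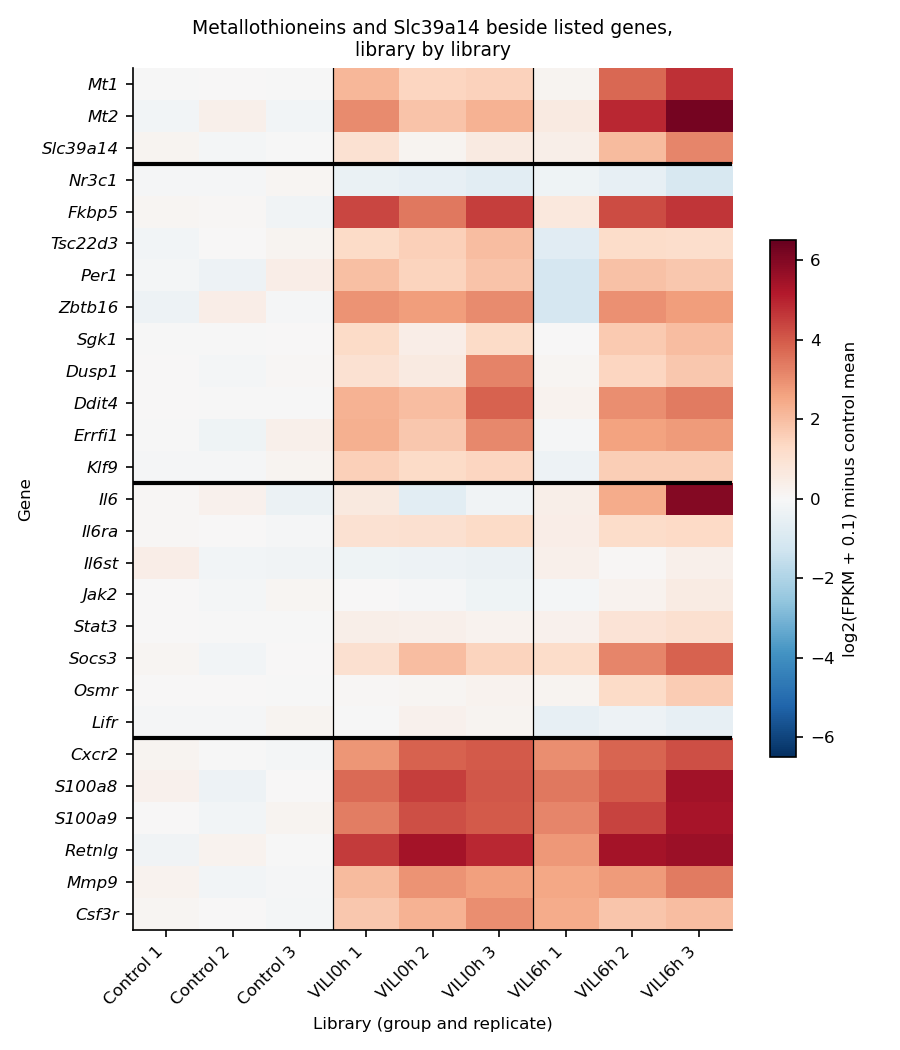
Difference of log2(FPKM + 0.1) from the control mean for Mt1, Mt2 and Slc39a14 (top), the glucocorticoid receptor and its targets, interleukin 6 and STAT3 genes and 6 neutrophil markers (bottom), 1 column per library. In the column of VILI 6 hours replicate 1 the members shown are near 0, and most glucocorticoid targets are near 0 or lower. The neutrophil markers shown lie above 0 there, such as S100a8 at 136 FPKM against 9.94 to 15.0 FPKM in controls.

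Markers of other cell types were set beside the members. All 7 tested neutrophil markers rose at each time, with and without VILI 6 hours replicate 1 (median 3.57 and 4.08 on the log2 scale), with a summed level of 47.8 to 56.1 FPKM in controls, 551 to 986 FPKM at 0 hours and 460 to 1887 FPKM at 6 hours. At 6 hours the summed levels of 460, 955 and 1887 FPKM in replicates 1, 2 and 3 had the same order as Mt1 and Mt2. At 0 hours, with 551, 986 and 809 FPKM, the order was the opposite, and the library with the lowest sum had the highest Mt1 and Mt2. Of the defining granule genes, Mpo and Elane were at most 0.19 FPKM in any library and did not pass the filter. Monocyte and macrophage markers summed to 208 to 270 FPKM in controls, 290 to 399 FPKM at 0 hours and 240 to 658 FPKM at 6 hours, with the highest value in VILI 6 hours replicate 1, and 2 of 8 rose at each time (Siglecf and Mrc1 at 0 hours, Ly6c2 and Mrc1 at 6 hours), or 3 and 2 without VILI 6 hours replicate 1. These shares stand beside 16.2% and 20.4% of all genes called with all libraries and 23.2% and 38.9% without that library. Summed alveolar type 1 markers ran from 1001 to 1372 FPKM over all libraries, endothelial markers from 717 to 886 FPKM and fibroblast markers from 348 to 463 FPKM. Of 5 endothelial markers, 1 fell at each time, Tek, and none rose, while without VILI 6 hours replicate 1 there were 2 higher and 2 lower at 0 hours and 3 higher and 2 lower at 6 hours. Of 5 alveolar type 1 markers, 2 rose at each time, Pdpn and Hopx, and without that library 2 rose at 0 hours and 1 rose and 1 fell at 6 hours. Of 4 fibroblast markers, Dcn rose and Col1a2 fell at 0 hours and Col1a2 fell at 6 hours, and without that library 1 rose and 1 fell at 0 hours and 1 rose at 6 hours. Of 6 alveolar type 2 markers, 1 rose at 0 hours, Sftpa1, and 1 fell at 6 hours, Lamp3, and without that library 3 rose at 0 hours and 1 rose and 1 fell at 6 hours. These marker genes were named after their values were seen. Summed cardiac muscle markers ran from 124 to 163 FPKM in 8 libraries and reached 271 FPKM in VILI 0 hours replicate 3. The part of these cells in the levels of the members was not tested.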

How the data were processed

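The deposited table holds FPKM per transcript. The authors removed low-quality reads, aligned the rest with TopHat (2.0.9), built transcript models (Scripture, Cufflinks) and quantified them as FPKM in Cuffdiff (2.1.1), and the sample records name GRCm38 as the build. The library kit differs between the sample records and the study's methods, and whether strand was used in quantification is not given in the sources used here, so reads from a gene and an antisense partner cannot be told apart. The 60108 rows were summed over 27203 gene IDs, as in the study. Symbols and positions came from GENCODE M21 (GRCm38), which held 23503 of 23713 Ensembl IDs.

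Here log2(FPKM + 0.1) was fitted by lmFit and a trended eBayes (limma 3.58.1, R 4.3.3), with group as the only factor, for 19378 genes with a mean of at least 0.1 FPKM over the 9 libraries. Transcript rows (37300) were fitted the same way. The procedure was tested on simulated data in which each gene had the same spread in all groups. Mt1 and Mt2 spread far more at 6 hours than in controls, so that test does not cover their P values. Exact permutation tests, ratios and figures used Python 3.11.15, scipy 1.17.1 and matplotlib 3.10.9. Raw reads were not analysed here, FPKM gives no counts, and only the spread of 3 libraries per group shows how precise a level is, each from 1 mouse, so P values rest on that spread.

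The 8 genes and all lists were chosen with earlier results of these data known. Named were the 8 genes, pathway list genes with P under 0.05 against controls at either time, and the 5 genes with the highest Pearson r with Mt1, Mt2 and Slc39a14. Genes overlapping a member were added after values were seen.

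The titles number the replicates 1 to 3 in each group, but deviations from the group means of libraries with the same number correlated between -0.22 and 0.02, so these numbers were not taken to pair the mice. The 18 alternative settings varied the pseudocount, filter, centring, block, trend, gene summary and libraries.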

Additional observations from a re-analysis of the deposited data

Results flagged for a closer look

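Slc39a14 was called as higher at 6 hours than at 0 hours, by 1.29 on the log2 scale (limma adjusted p = 0.489), and by 2.04 without VILI 6 hours replicate 1, but the groups overlapped (exact permutation p = 0.3) and the call was lost in 14 of 18 alternative settings. Slc39a8 differed by 0.62 (adjusted p = 0.231), and its libraries lay below the controls at 0 hours and above them at 6 hours. A value outside the gene measurements came from XLOC_144845, an assembled locus on the minus strand at chr8:94179288-94180281, inside Mt1 and antisense to it. It was listed at 0 in all 3 control libraries, all VILI 0 hours libraries and VILI 6 hours replicate 1, and at 1.76 and 1.27 FPKM in the other VILI 6 hours libraries, those in which Mt1 stood at 463.4 and 929.6 FPKM. Whether Mt1 reads were assigned to it was not tested.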

How the results depend on the processing

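Over 18 alternative settings, the log2 fold changes of the 8 genes kept their direction and their side of the threshold in 372 of 429 values. Settings such as the filter, the trend and the block leave a fold change itself as it was, so its direction could not turn there. The calls of Mt1, Mt2 and Slc39a14 at 6 hours against controls held in all 18 settings, with values of 1.98 to 4.26, 2.74 to 5.54 and 1.22 to 2.63. The lowest came without VILI 6 hours replicate 3 and the highest without replicate 1. The members called at 0 hours were 0 after centring on the median, 2 with the row of highest mean FPKM and 5 with only the 6 libraries compared, and 0 to 4 when single libraries were left out. All genes called there were 5076 with only the 6 libraries compared and 1978 to 4495 when single libraries were left out, against 3130. At 6 hours single libraries left out gave 3 to 4 members and 2540 to 7540 genes, against 3952. Between the times the members called were 1, not 2, with a mean FPKM of at least 1, without a filter, after centring, with a replicate block, without a trend, with the row of highest mean and with only the 6 libraries compared. All genes called were 1196 in the last of these, and single libraries left out gave 1 to 4 members and 1406 to 4353 genes, against 1938. The lowest and highest counts for all genes came without control replicate 2 or VILI 0 hours replicate 3 and without VILI 6 hours replicate 1.

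Some directions turned, all but one of values that were not called. Slc30a1 at 0 hours was 0.11 after centring and 0.0014 by its main row, and -0.19 to 0.093 with single libraries left out. Slc39a8 at 6 hours was -0.043 by its main row. Mtf1 was -0.27 to 0.12 at 0 hours with single libraries left out, and between the times 0.0015 after centring and -0.27 to 0.13. Mt3 was -0.21 to 0.97 at 0 hours, -0.069 to 1.11 at 6 hours and, between the times, -0.11 by its main row and -0.075 to 0.48. The causes were not tested.

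Centring moved the share of higher genes among those called from 42.1% to 61.2% at 0 hours and from 40.1% to 58.1% at 6 hours, with a shift of the median of all genes from -0.07 to 0.05 and from -0.09 to 0.04. With the replicate number as a block, Slc39a14 between the times was no longer called (adjusted p = 0.592) and no other call of a member changed. Without VILI 6 hours replicate 1, chosen after the data were seen, calls went from 1 to 5 for the other zinc transporters and from 5 to 10 for the glucocorticoid list at 6 hours. The share of all genes called there also went up, from 20.4% to 38.9%. FPKM near 0.1, as for Mt3, gives understated fold changes.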

Other observations

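Of the annotated loci that overlap a member, 2 beside Gm43428 had expression in every library. Gm28151, a lincRNA inside Slc39a10 on the same strand, stood at 3.26, 3.19 and 4.03 FPKM in controls, 2.19, 1.97 and 1.76 FPKM at 0 hours and 2.40, 1.42 and 1.43 FPKM at 6 hours. It fell by 0.79 at 0 hours (limma adjusted p = 0.143) and by 0.99 at 6 hours (adjusted p = 0.0770), whereas the log2 fold change of Slc39a10 at 6 hours was -0.14 (adjusted p = 0.485). The gene 1110065P20Rik overlaps the end of Mtf1 on the other strand, and it fell by 0.70 at 6 hours (adjusted p = 0.149), where Mtf1 had an adjusted p = 0.724.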
